A study of Mus musculus with 16 samples.

Results

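The genes described here are 9 transcription factors of blood formation, Hhex, Runx1, Tal1, Lyl1, Lmo2, Gata2, Gfi1, Gfi1b and Spi1, measured in sorted endothelial cells of mouse liver, lung and heart. They are a list of named genes, with no threshold on their values, and are 9 of the 52636 genes counted. The list was chosen with earlier results of these data known. After a filter on low counts 19646 genes were tested, and 8 of the 9 factors were among them, Gfi1b being too low. Ptprc, which encodes the leukocyte surface protein CD45, was read beside them as a check on leukocyte RNA, since the sort was for CD45-negative cells.

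The 16 poly(A) RNA sequencing libraries came from animals with the genotype Wild Type (controls) or Erg and Fli1 double knockout. There were 3 libraries of each genotype from liver, 3 of each from lung and 2 of each from heart. All were taken at day 10 after tamoxifen, and the treatment text is the same for controls and knockouts. An antibody to VE-cadherin was injected to mark endothelial cells in vivo, the organs were digested with collagenase and dispase, and live CD45-, CD31+ and VE-cadherin+ cells were sorted. The sources used here do not give the driver of the tamoxifen-dependent deletion, the alleles or the age of the animals. Nothing in the labels says that the libraries of a group came from separate animals. By the sex genes given below, every group but heart controls held libraries of both sexes, which came from different animals. Libraries of the same sex in a group may still share an animal. The p-values therefore measure only the spread between these libraries, part of which may be technical.

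Blood stem cells first form in the embryo from hemogenic endothelium, endothelial cells of the great arteries that turn into blood. Tal1 and Lyl1 are related basic helix-loop-helix proteins that bind DNA together with E proteins, and Lmo2 and Ldb1 bridge them to a GATA factor such as Gata2. Runx1 drives the step from endothelium to blood, and Gfi1 and Gfi1b are repressors that shut off endothelial genes in that step. Spi1 encodes PU.1, an ETS factor of macrophages and other myeloid cells, and Hhex is a homeobox factor of early endothelium, liver and blood progenitors. Several of these genes stay active in adult endothelium. Erg and Fli1 are ETS factors too, and ETS factors bind DNA at a GGAA core.

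Total counts per library ran from 30226340 to 41449054, and libraries of a group correlated at 0.964 to 0.986 over the genes tested. Levels are given as CPM, in which each count is scaled to the library's TMM-adjusted total, and every group value is a mean ± SD over libraries (n = 3 in liver and lung, n = 2 in heart). Rose and fell are used for knockout-labelled against control libraries at an adjusted p under 0.05 by edgeR's quasi-likelihood test with Benjamini-Hochberg adjustment over all genes tested. Erg fell in liver (356 ± 17.5 to 144 ± 18.6 CPM) and lung (266 to 185 CPM), while heart did not pass (216 to 156 CPM, adjusted p = 0.0538). Fli1 rose in lung and fell in no tissue by its whole-gene count. The sources used here do not give the part of each gene that is deleted, so reads from the rest of the gene still count. Of 11 endothelial markers, which summed to between 9943 and 22501 CPM in a library, 5 fell in liver, 5 in lung and 6 in heart, and 1 rose in lung. The sort markers Cdh5 (VE-cadherin) and Pecam1 (CD31) passed in no tissue. By Xist and 4 Y-linked genes, library 2 of each group was male in liver and lung. In heart, knockout-labelled library 2 was male and the other 3 libraries were female, so that the difference in sex falls within the heart comparison.

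In control endothelium 5 of the factors were well expressed and 4 were low. To compare genes, CPM were divided by the length of each gene's merged exons in kilobases (RPKM). In liver controls Lmo2 had 61.7 ± 3.50 RPKM, Tal1 21.6 ± 2.15, Gata2 17.7 ± 1.17, Lyl1 15.9 ± 2.20 and Hhex 13.1 ± 1.497. Gata2 overlapped Lyl1 in that order, and Lyl1 overlapped Hhex. In lung controls Gata2 led with 163 ± 43.2 RPKM, ahead of Lmo2 with 81.2 ± 13.1, Tal1 with 28.6 ± 2.78, Lyl1 with 12.9 ± 3.90 and Hhex with 10.6 ± 0.633. Lyl1 and Hhex again overlapped. Heart controls kept the lung order, with 57.7 ± 13.3 RPKM of Gata2, 35.6 ± 1.55 of Lmo2, 19.4 ± 1.24 of Tal1, 15.1 ± 4.22 of Lyl1 and 8.37 ± 2.49 of Hhex. Spi1 had 4.25 ± 2.24 RPKM in liver controls, 0.832 ± 0.312 in lung and 0.188 ± 0.0831 in heart. Runx1 had 0.0812 RPKM in liver, 0.703 in lung and 0.0484 in heart, and Gfi1 and Gfi1b stayed under 0.1 RPKM in all 3 control groups.

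**Figure D1:**
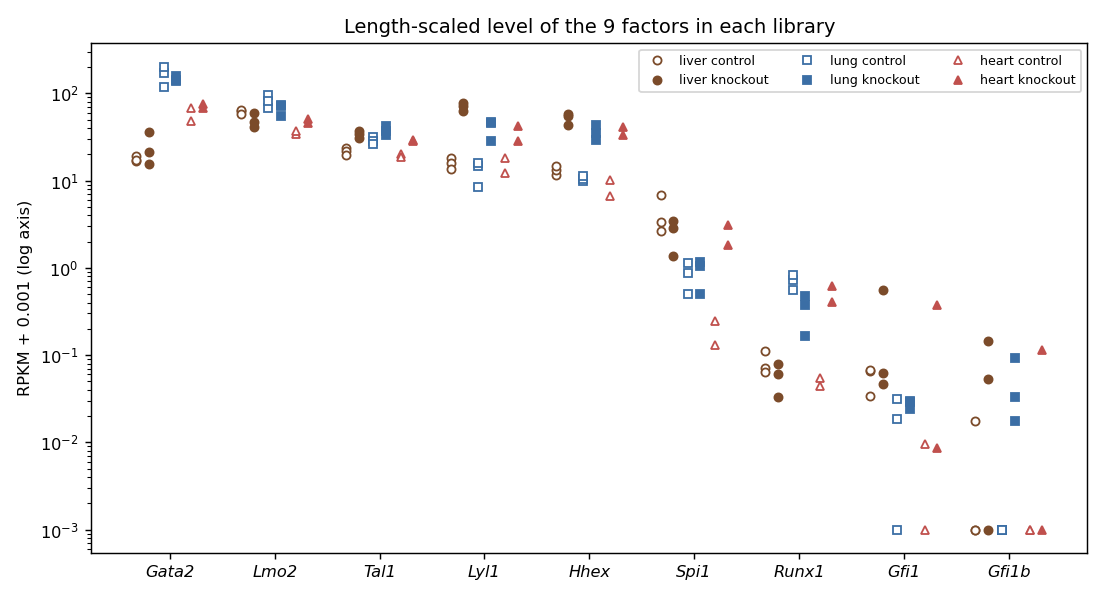
RPKM + 0.001 on a log axis for the 9 factors in the 6 groups, with 1 point per library (open for control, filled for knockout-labelled). Gata2, Lmo2, Tal1, Lyl1 and Hhex lie above Spi1, Runx1, Gfi1 and Gfi1b in every control group, and Gata2 is far higher in lung (163 ± 43.2 RPKM) than in liver (17.7 ± 1.17 RPKM).

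Organs of 1 animal may stand behind libraries of different tissues, which the labels do not say, and the comparisons between tissues treat them as separate. Gata2 differed most between the control tissues among the 5 well expressed factors. Lung controls had 629, 916 and 1092 CPM of it and liver controls 103, 91.0 and 92.4 CPM, a 9.22-fold difference (log2 3.21, SE 0.285, adjusted p = 7.24e-07). Heart controls, with 261 and 362 CPM, lay between both, 3.27-fold above liver (adjusted p = 0.000294). Runx1 was 8.63-fold higher in lung than in liver controls (log2 3.11, SE 0.421, adjusted p = 3.6e-05). Spi1 ran the other way, and was lower in lung than in liver controls (log2 −2.35, adjusted p = 0.00115) and lower again in heart (log2 −4.49 against liver, adjusted p = 8.29e-05). Lmo2 was lower in heart controls than in liver (log2 −0.79, adjusted p = 0.00173) or lung (log2 −1.19, adjusted p = 0.000157). Against lung, heart controls were also lower in Runx1 (log2 −3.85, adjusted p = 8.6e-05) and Gata2 (log2 −1.50, adjusted p = 0.00224). The same held for Spi1 (log2 −2.14, adjusted p = 0.0162), though not with limma-voom (adjusted p = 0.106). In all, 5 of 8 factors differed between lung and liver controls, 4 between heart and liver and 5 between heart and lung. The same was true of 47%, 47.6% and 29.5% of all genes tested. Lyl1 passed in no control comparison, with 28.6 ± 3.97 CPM in liver, 23.3 ± 7.02 in lung and 27.1 ± 7.60 in heart. Smaller differences passed for Tal1 (lung over liver, log2 0.40, adjusted p = 0.0101, and heart under lung, log2 −0.56, adjusted p = 0.00488). They also passed for Lmo2 (lung over liver, log2 0.40, adjusted p = 0.0409) and Hhex (heart under liver, log2 −0.65, adjusted p = 0.0177). The Lmo2 call ended without the count filter (adjusted p = 0.0896) and without liver control 1, 2 or 3 or lung control 1 or 3 (up to 0.176). The Hhex call ended without heart control 1 or liver control 3.

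With Erg and Fli1 knockout, Hhex, Lyl1 and Tal1 rose in all 3 tissues, and Runx1 and Spi1 rose in heart. The remaining tested factors, Lmo2, Gata2 and Gfi1, passed in no tissue. Thus 3 of 8 rose in liver, 3 of 8 in lung and 5 of 8 in heart, where 9.54%, 4.35% and 10.2% of all genes tested rose. A rise in all 3 tissues was seen in 3 of the 8 and in 199, or 1.01%, of all genes tested. The lung call of 1 of these, Tal1, stood at the threshold (adjusted p = 0.0486). The list was chosen with earlier results of these data known, so its shares beside those of all genes are only a description. The median log2 change of the 8 was 0.55 in liver, 0.24 in lung and 1.68 in heart, against 0.02, −0.02 and 0.01 over all genes. Groups did not overlap for 3 of the 8 in liver, 4 in lung and 6 in heart, against 37%, 29.4% and 59% of all genes. None of the 8 fell by edgeR in any tissue, where 9.87%, 4.11% and 9.09% of all genes fell. At an unadjusted p under 0.05 there was 1 lower in liver (Lmo2), 1 in lung (Runx1) and 0 in heart, and limma-voom called Runx1 lower in lung (log2 −1.21, adjusted p = 0.0241) while DESeq2 called 0 lower.

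**Figure D2:**
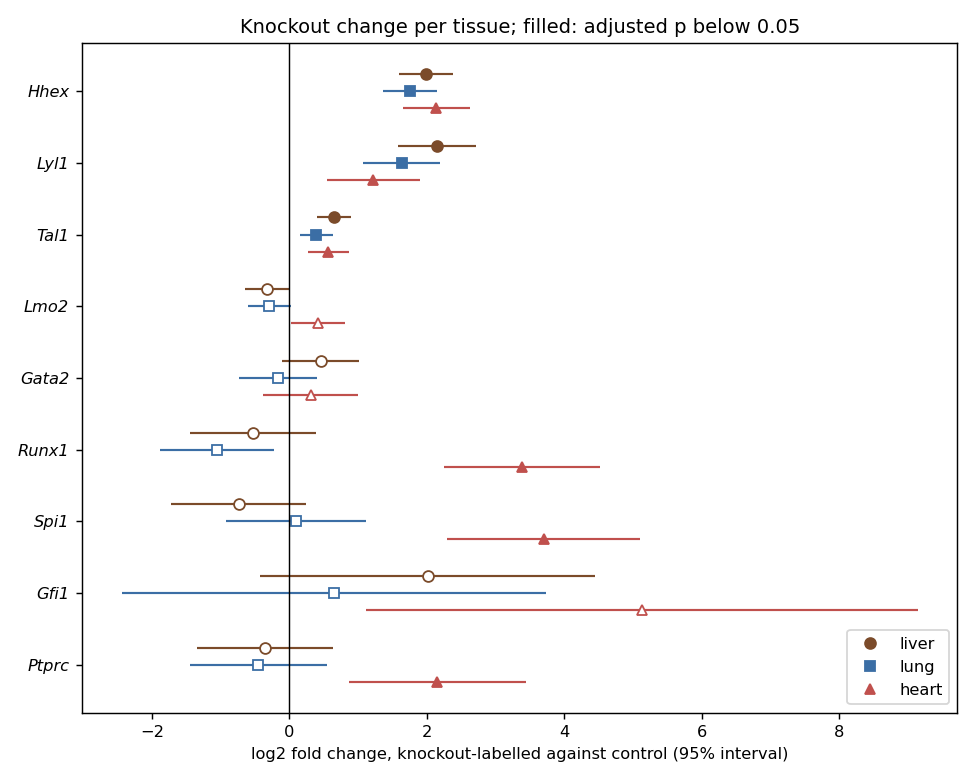
Knockout-minus-control log2 fold change of the 8 tested factors and Ptprc per tissue, with 95% confidence intervals from the fit of all 16 libraries and filled points at an adjusted p under 0.05. Hhex, Lyl1 and Tal1 lie right of 0 in all 3 tissues, and Runx1, Spi1 and Ptprc lie right of 0 in heart with wider intervals. The interval of Gfi1 in heart, 1.11 to 9.14, is the widest.

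Hhex rose between 3.37- and 4.40-fold in the 3 tissues. It lies on chromosome 19 (GRCm38, chr19:37434810-37440731, plus strand). Liver controls had 58.9, 66.0 and 74.0 CPM of Hhex and knockout-labelled libraries 293, 217 and 277 CPM. Lung controls had 50.4, 53.1 and 56.7 CPM, and lung knockouts 175, 148 and 217 CPM. Heart controls had 33.4 and 51.2 CPM, and heart knockouts 206 and 167 CPM. In each tissue every knockout-labelled library lay above every control, and all knockout values over the tissues lay above all control values. Hhex rose 3.96-fold in liver (log2 1.99, SE 0.184, adjusted p = 8.11e-06), 3.37-fold in lung (log2 1.75, SE 0.183, adjusted p = 0.000105) and 4.40-fold in heart (log2 2.14, SE 0.227, adjusted p = 6.35e-05).

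Lyl1 (chr8:84701457-84704715, plus strand) rose most in liver. Its controls there had 32.6, 28.6 and 24.7 CPM and the knockout-labelled libraries 113, 128 and 139.8 CPM. Lung controls had 15.2, 26.3 and 28.2 CPM, and lung knockouts 50.4, 83.6 and 82.5 CPM. Heart went from 21.8 and 32.5 CPM to 50.7 and 76.0 CPM. No group pair overlapped within a tissue. The rise was 4.43-fold in liver (log2 2.15, SE 0.263, adjusted p = 7.52e-05), 3.10-fold in lung (log2 1.63, SE 0.259, adjusted p = 0.00164) and 2.33-fold in heart (log2 1.22, SE 0.314, adjusted p = 0.0154). The heart call ended without heart control 1 (adjusted p = 0.139) or knockout-labelled heart library 2 (adjusted p = 0.116).

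Tal1 (chr4:115056426-115071755, plus strand), the relative of Lyl1, moved far less. Liver controls had 104, 94.7 and 85.2 CPM of Tal1 and knockout-labelled libraries 134, 151 and 160.0 CPM, a 1.57-fold rise (log2 0.65, SE 0.114, adjusted p = 0.00127). Lung controls had 138, 123 and 114 CPM and the knockouts 164, 147 and 183 CPM, a 1.31-fold rise (log2 0.39, SE 0.114, adjusted p = 0.0486). In heart it went from 88.7 and 80.9 CPM to 123 and 128 CPM, a 1.48-fold rise (log2 0.57, SE 0.140, adjusted p = 0.0129). The knockouts lay above the controls in each tissue without overlap, by little in lung. The lung call stood at the threshold. It ended without lung control 2 or 3 or knockout-labelled lung library 1 or 3 (adjusted p up to 0.184), without the count filter (0.0776) and in a fit of lung alone (0.0821), and the heart call ended without heart control 2 (0.1103) or knockout-labelled heart library 2 (0.063).

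Because Lyl1 rose more than Tal1, the balance of this related pair changed. The RPKM of Lyl1 divided by that of Tal1 was 0.762, 0.736 and 0.704 in liver controls and 2.06, 2.06 and 2.12 in the liver knockouts. In lung the ratio was 0.268, 0.523 and 0.600 in the controls and 0.749, 1.39 and 1.10 in the knockouts. Heart had 0.597 and 0.977 in the controls and 1.005 and 1.44 in the knockouts. All 3 liver knockouts thus had more Lyl1 than Tal1 per length where all 3 liver controls had less, and the heart groups nearly touched. The ratio rests on the same counts as the tests above and was not tested itself.

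**Figure D3:**
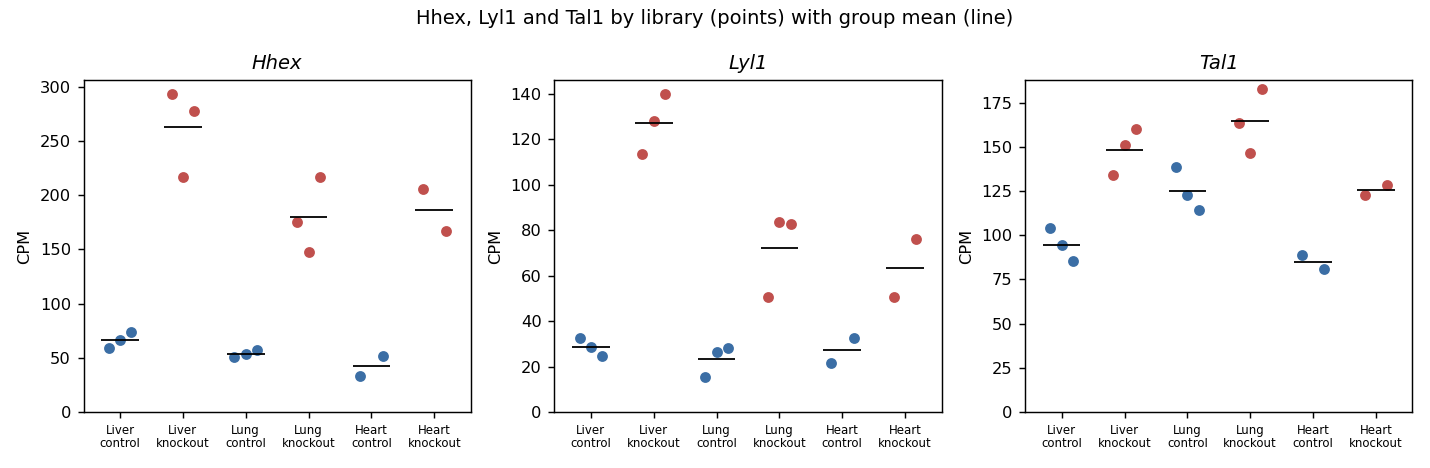
CPM of Hhex, Lyl1 and Tal1 in each library by tissue, with points for libraries and a line at each group mean. Knockout-labelled libraries lie above the controls of the same tissue for all 3 genes, with the widest gaps for Hhex (66.3 ± 7.57 to 262 ± 40.2 CPM in liver) and Lyl1 (28.6 ± 3.97 to 127 ± 13.2 CPM in liver).

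The sequence just before the start of these 3 genes, and of Gata2, the strongest factor in lung, is shown because the deleted factors bind GGAA and these genes carry the results. RefSeq promoter windows (GRCm38.p6) matched 7 of the 9 factors. Each was trimmed to the bases before the first exon of a protein-coding gene, and is printed 5′ to 3′ on the gene's strand, with every GGAA or its reverse complement TTCC in capitals. The windows are chr19:37434591-37434809 for Hhex, chr8:84701207-84701456 for Lyl1, chr4:115056176-115056425 for Tal1 and chr6:88193641-88193890 for Gata2, all on the plus strand.
Hhex: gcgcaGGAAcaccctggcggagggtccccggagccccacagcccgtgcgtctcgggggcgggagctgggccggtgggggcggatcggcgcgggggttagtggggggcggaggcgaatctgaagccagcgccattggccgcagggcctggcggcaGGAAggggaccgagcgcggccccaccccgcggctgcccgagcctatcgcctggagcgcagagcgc
Lyl1: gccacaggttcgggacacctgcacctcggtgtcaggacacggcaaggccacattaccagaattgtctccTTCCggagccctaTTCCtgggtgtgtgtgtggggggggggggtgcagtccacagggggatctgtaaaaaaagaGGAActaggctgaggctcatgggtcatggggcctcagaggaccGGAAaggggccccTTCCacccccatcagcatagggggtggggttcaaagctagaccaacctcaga
Tal1: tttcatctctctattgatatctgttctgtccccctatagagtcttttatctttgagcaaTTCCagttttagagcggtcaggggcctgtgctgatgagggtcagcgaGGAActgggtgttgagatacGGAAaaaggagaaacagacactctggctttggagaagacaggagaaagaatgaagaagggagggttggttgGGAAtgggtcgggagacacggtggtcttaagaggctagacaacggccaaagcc
Gata2: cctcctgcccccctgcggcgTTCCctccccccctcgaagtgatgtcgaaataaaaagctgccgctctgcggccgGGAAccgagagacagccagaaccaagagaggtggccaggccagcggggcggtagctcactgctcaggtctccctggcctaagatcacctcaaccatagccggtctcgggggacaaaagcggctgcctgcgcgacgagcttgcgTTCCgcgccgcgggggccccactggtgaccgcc
The Lyl1 window holds 5 GGAA cores on either strand, that of Tal1 4, that of Gata2 3 and the shorter one of Hhex 2. Tal1 has a second window, chr4:115057561-115057810, which is not printed and holds 3. The second window of Runx1, not printed either, holds 6, the most of the factors with a window. A core of such few letters is common. Of 32851 mouse promoter windows trimmed to 250 bases, 18.03% hold as many as Lyl1 and 8.69% as many as that of Runx1. At least 1 is held by 93.45%, with a median of 3. For the 219 bases of Hhex the share is 91.0% and the median 2. The longer ETS motif CCGGAAGT, which contains the core, was found in none of the 4 windows, and 2.88% of windows of 250 bases hold it. The GATA motif GATAAG, the Runx motif TGTGGT and the E-box CAGATG, searched on both strands, were not in these 4 windows either. The window of Gfi1b, not printed, holds 1 GATAAG, and 6.55% of windows of 250 bases hold it. The letters alone are a description and show no binding, and no match says nothing of the factors.

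Lmo2 (chr2:103957986-103981878, plus strand) passed in no tissue, and its values pointed in different directions. Liver controls had 136, 139.8 and 125 CPM of Lmo2 and the knockouts 102, 89.4 and 127 CPM (log2 −0.33, 95% interval −0.65 to −0.01, adjusted p = 0.144). Lung had 205, 148 and 174 CPM against 120.2, 154 and 158 CPM (log2 −0.29, interval −0.61 to 0.03, adjusted p = 0.273). In both tissues the groups overlapped. Heart controls, at 74.7 and 79.5 CPM, lay below the heart knockouts, at 109 and 97.7 CPM (log2 0.42, interval 0.03 to 0.82, adjusted p = 0.125). The heart change minus the liver change was 0.75 in log2 (interval 0.24 to 1.26, adjusted p = 0.0667), and minus the lung change 0.71 (adjusted p = 0.0926).

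Gata2 (chr6:88193891-88207032, plus strand) did not pass in any tissue either. Liver knockouts had 114, 83.5 and 194 CPM, so that library 3 lay well above the controls and library 2 below them (log2 0.45, interval −0.11 to 1.02, adjusted p = 0.257). Lung knockouts had 739, 845 and 769 CPM, inside the range of their controls (log2 −0.17, interval −0.73 to 0.40, adjusted p = 0.766). Heart knockouts had 362 and 410.4 CPM against 261 and 362 CPM in the controls (log2 0.31, interval −0.38 to 0.999, adjusted p = 0.544). The upper bounds in liver and heart still allow a rise of about 2-fold. The order of tissues, lung over heart over liver, was the same in the knockouts, with means of 784 ± 54.8, 386 ± 34.6 and 130.5 ± 57.2 CPM.

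**Figure D4:**
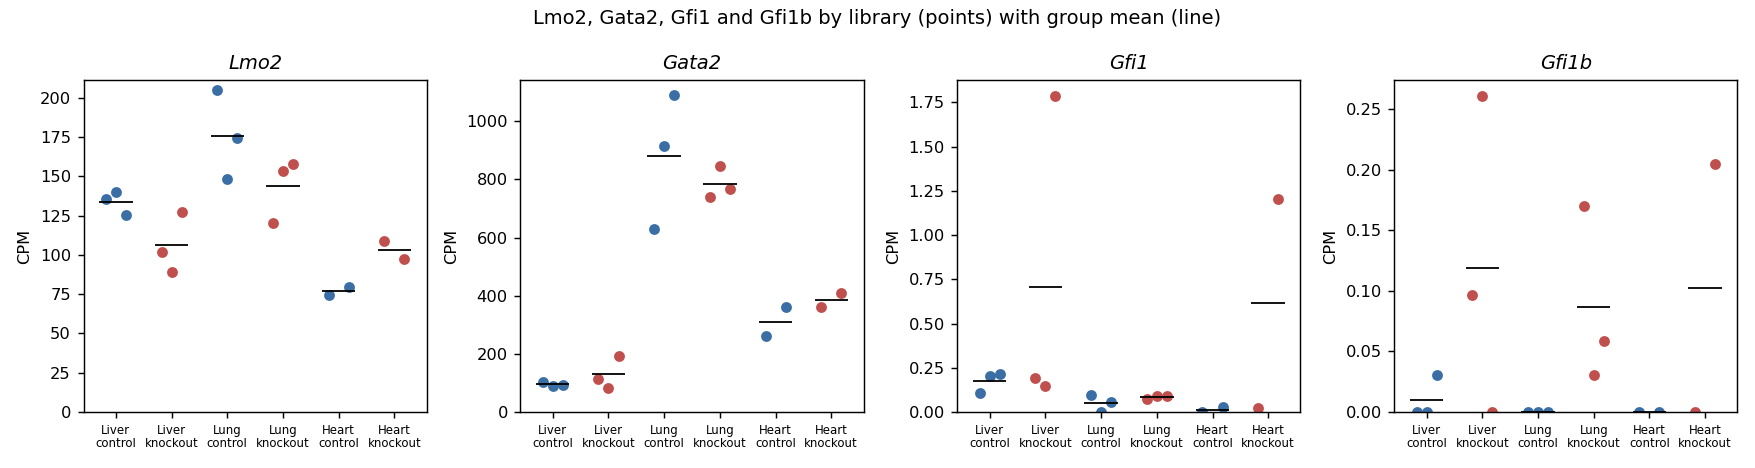
CPM of Lmo2, Gata2, Gfi1 and Gfi1b in each library (points) with group means (lines), on a separate linear axis per gene. Lmo2 and Gata2 overlap between control and knockout in liver and lung, and Gfi1 and Gfi1b are near 0 except in knockout-labelled liver library 3 (1.79 CPM of Gfi1) and heart library 2 (1.203 CPM of Gfi1).

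Runx1 rose in heart. It lies on the minus strand of chromosome 16 (chr16:92601466-92826149). Heart controls had 0.638 and 0.527 CPM of Runx1 and the knockouts 7.34 and 4.89 CPM, a 10.4-fold rise (log2 3.39, SE 0.530, adjusted p = 0.000779). Lung controls, where Runx1 was highest, had 8.67, 6.73 and 9.95 CPM and the knockouts 1.99, 5.71 and 4.53 CPM. All lung knockouts lay below all lung controls, and the difference did not pass (log2 −1.05, SE 0.384, adjusted p = 0.114). Liver had 0.843, 0.749 and 1.34 CPM against 0.709, 0.928 and 0.383 CPM, which overlapped (log2 −0.53, adjusted p = 0.425). Heart knockouts thus came to lie in the range of the lung groups, which span 1.99 to 9.95 CPM.

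Spi1 (chr2:91082390-91115756, plus strand) rose in heart as well. Heart controls had 0.348 and 0.665 CPM of Spi1 and the knockouts 4.97 and 8.32 CPM, a 12.99-fold rise (log2 3.70, SE 0.654, adjusted p = 0.00171). Liver controls had 8.93, 7.12 and 18.3 CPM against 7.64, 9.31 and 3.70 CPM (log2 −0.74, interval −1.72 to 0.25, adjusted p = 0.293). Lung had 3.03, 1.36 and 2.34 CPM against 1.33, 3.10 and 2.79 CPM (log2 0.10, interval −0.92 to 1.11, adjusted p = 0.940). The groups overlapped in liver and lung, and the heart knockouts lay within the range of the liver libraries. The heart rises of Runx1 and Spi1 passed under every other setting and without any 1 heart library, with adjusted p up to 0.0144 and 0.0300.

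Leukocyte RNA moved with these heart rises. Ptprc had 1.31 and 1.995 CPM in heart controls and 7.12 and 7.58 CPM in the knockouts, a 4.44-fold rise (log2 2.15, SE 0.599, adjusted p = 0.0228). That call ended without any 1 of the 4 heart libraries, with adjusted p from 0.0645 to 0.154. In liver Ptprc had 7.72, 7.86 and 13.6 CPM against 10.4, 9.80 and 2.55 CPM (adjusted p = 0.642), and in lung 10.1, 4.85 and 6.61 against 3.69, 7.86 and 4.23 CPM (adjusted p = 0.615). In heart 19 of 20 pan-leukocyte genes and 8 of 18 macrophage genes rose, and none fell. The leukocyte genes summed to 77.6 to 90.5 CPM in heart controls and 246 to 264 CPM in the knockouts, and the macrophage genes to 34.5 to 86.0 and 324 to 559 CPM. The macrophage integrin gene Itgam, for one, had 0.227 ± 0.00739 and 5.24 ± 1.32 CPM, and Marco was at 0 counts in both controls and had 3.16 ± 0.313 CPM in the knockouts. The part of these cells in the rises of Runx1 and Spi1 was not tested, and more cells of a type and more RNA per cell cannot be told apart in bulk libraries.

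Spi1 is itself a gene of macrophages, and the ratio to Ptprc shows how far both moved together. Spi1 divided by Ptprc, both in CPM, was 0.267 and 0.333 in heart controls and 0.698 and 1.10 in the knockouts. Liver spanned 0.731 to 1.45 over its 6 libraries, with the groups overlapping. Lung controls had 0.280 to 0.354 and lung knockouts 0.362 to 0.660. Runx1 divided by Ptprc was 0.489 and 0.264 in heart controls and 1.03 and 0.645 in the knockouts. In lung that ratio was 0.859, 1.39 and 1.51 in the controls and 0.539, 0.727 and 1.07 in the knockouts, and in liver it ran from 0.0679 to 0.150. Relative to Ptprc, liver controls therefore had more Spi1 and less Runx1 than lung controls. Ptprc itself, at 9.72 CPM in liver and 7.19 CPM in lung controls, did not pass between them (adjusted p = 0.466 by edgeR). Runx1 and Spi1 in heart rose more than Ptprc did, in means of single genes whose ratio was not tested. Ptprc is 1 gene of the leukocyte list, and its log2 change in heart was 2.15. The median log2 change there was 2.55 for the 20 leukocyte genes and 3.16 for the 18 macrophage genes. Runx1 had 3.39 and Spi1 3.70.

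Lung epithelial markers were also higher in heart. These genes, 9 in all, summed to 5.08 and 6.01 CPM in the heart controls and 104 and 161 CPM in the knockouts, with 7 of 9 higher. Lung controls had 2017 to 3233 CPM and lung knockouts 317 to 540 CPM, with 6 of 9 lower. Fibroblast and mural genes summed to 1608 and 1749 CPM in heart controls and 2064 and 2382 CPM in the knockouts, and none of the 14 passed. The part of the lung epithelial genes in the rises of Runx1 and Spi1, and in the lung values of the factors, was not tested. Hhex, Lyl1 and Tal1 rose in liver and lung as well, where no leukocyte gene of 20 rose by edgeR and 1 fell in liver (Lcp2). At an unadjusted p under 0.05, 2 leukocyte genes were higher in liver and 1 in lung, and DESeq2 called 0 and 1 and limma-voom 1 and 0. Of the macrophage genes, 0 rose in liver and lung by edgeR, with 0 and 2 at an unadjusted p under 0.05, 0 and 2 by DESeq2, and 0 and 0 by limma-voom. Macrophage genes summed to 3908 to 4788 CPM in liver controls and 2393 to 2893 in the knockouts, and in lung to 528 to 586 and 97.8 to 302 CPM. By edgeR 0 of these 18 genes fell in liver and 1 in lung. Their median log2 change was −0.69 in liver and 0.09 in lung, so the lower lung sum was not a shift of the whole list. Sums of other blood cell lists were higher in some cases and lower in others. B cell genes summed to 36.0 to 51.1 CPM in liver controls and 6.35 to 20.9 CPM in the knockouts. In lung their sums overlapped, and 0 of 8 were called in either tissue. Neutrophil genes summed to 1.502 to 2.66 CPM in liver controls and 6.32 to 126 CPM in the knockouts, with 5 of 8 tested higher, and in lung to 2.24 to 8.45 and 17.03 to 47.3 CPM, with 1 of 8 higher. Erythroid genes summed to 30.9 to 41.9 CPM in lung controls and 73.96 to 458 CPM in the knockouts, and to 34.2 to 67.3 and 19.4 to 185 CPM in liver, with 0 of 7 called in either. The part of these cells in the rises of Hhex, Lyl1 and Tal1 was not tested.

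**Figure D5:**
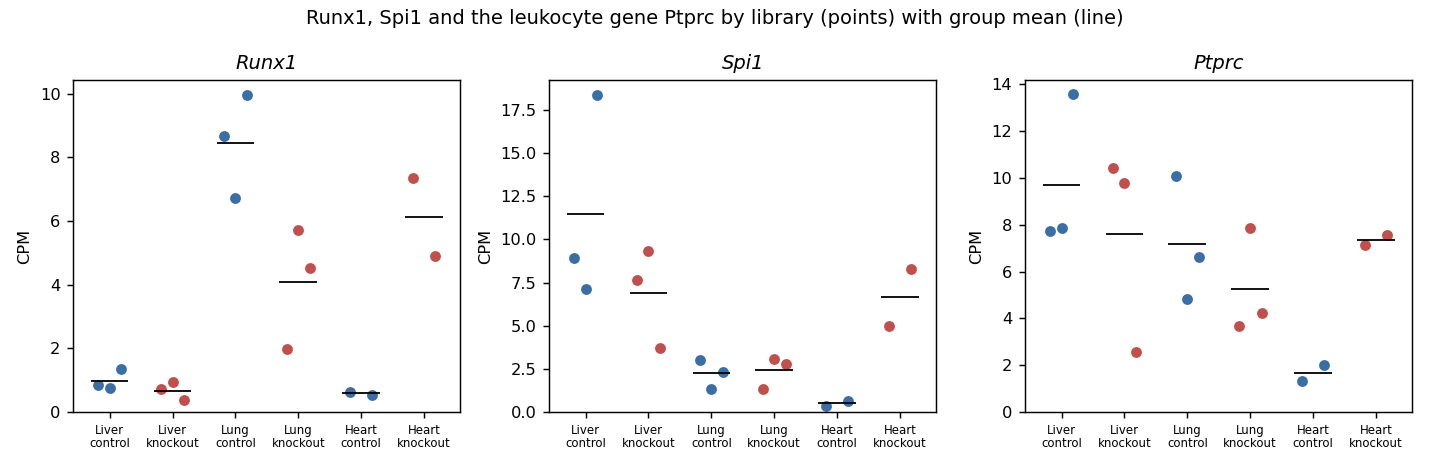
CPM of Runx1, Spi1 and Ptprc in each library (points) with group means (lines), on a linear axis per gene. In heart all 3 genes are higher in both knockout-labelled libraries than in both controls, whereas the liver groups overlap for each gene and the lung groups do for Spi1 and Ptprc.

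The repressor genes Gfi1 (chr5:107716657-107726036, minus strand) and Gfi1b (chr2:28609450-28621982, minus strand) stayed below a mean of 1 CPM in every group. Gfi1 had 4, 6 and 7 counts in liver controls and 6, 5 and 56 in the knockouts, so that library 3 alone was high. In heart it had 0 and 1 counts in the controls and 1 and 47 in the knockouts, again with 1 high library. The liver ratio of total counts, scaled to library size, was 4.08 (95% counting interval 2.37 to 7.41) and the heart ratio 42.4 (7.25 to 1707), both set by a single library, and these intervals cover counting error only. By edgeR Gfi1 passed neither in liver (adjusted p = 0.244) nor in heart (adjusted p = 0.0711). In heart DESeq2 called it (adjusted p = 0.0338), and without knockout-labelled heart library 2 the log2 change was 0.66. Lung had 4, 0 and 2 counts against 3, 3 and 3. Knockout-labelled liver library 3 stood apart in other cell type genes too. Erythroid genes summed there to 185 CPM against 19.4 and 23.8 in libraries 1 and 2, and fibroblast and mural genes to 237 against 81.5 and 44.4 CPM. Mast cell and basophil genes summed to 218 against 83.8 and 84.2 CPM, though 8 of the 9 stayed below a mean of 1 CPM in every group, and neutrophil genes to 6.32 against 126 and 24.2 CPM. The part of these cells in Gfi1 was not tested.

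Gfi1b was at the limit of detection, with 1 count over the 3 liver controls and 0 in lung and heart controls. Knockout-labelled libraries had 3, 9 and 0 counts in liver, 7, 1 and 2 in lung and 0 and 8 in heart. Scaled to library size the liver ratio was 12.4 (95% counting interval 1.84 to 531). With a floor of 3 counts set for the control group, the knockout totals of Gfi1b were 3.50-fold higher in lung and 2.35-fold higher in heart. These folds take the knockout totals as they are, without counting error, and are not lower bounds. All 3 lung knockouts had reads and no lung control did, and heart rests on 1 library. In an edgeR fit without the count filter Gfi1b passed in no tissue (adjusted p = 0.361 in liver, 0.262 in lung and 0.290 in heart). Exons of Runx1, Lyl1 and Gfi1 overlap those of a gene on the opposite strand by 106, 4 and 101 bases, so that their counts are slightly uncertain where reads were counted without strand.

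The knockout effect itself was compared between tissues. It differed for 2 of the 8 factors, Runx1 and Spi1, both between heart and liver and between heart and lung, where 8.32% and 6.4% of all genes tested differed. The change of Runx1 in heart exceeded that in liver by 3.92 in log2 (SE 0.669, adjusted p = 0.00318) and that in lung by 4.44 (SE 0.650, adjusted p = 0.0019). For Spi1 the excess was 4.43 over liver (SE 0.790, adjusted p = 0.0041) and 3.603 over lung (SE 0.791, adjusted p = 0.0174). The difference of Spi1 from lung did not pass with limma-voom (adjusted p = 0.0582) or without heart control 1 (0.0991) or knockout-labelled heart library 2 (0.0538). For Ptprc the excess in heart was 2.51 over liver (adjusted p = 0.0562) and 2.60 over lung (adjusted p = 0.0563), and with DESeq2 both passed (adjusted p = 0.00757 and 0.00702). The 2 heart comparisons share the heart libraries.

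Between lung and liver the effect differed for 0 of the 8 factors by edgeR, with 0 at an unadjusted p under 0.05 and 0 by DESeq2 and limma-voom, where 6.2% of all genes differed. For Hhex the lung change minus the liver change was −0.23 in log2 (95% interval −0.78 to 0.31), and the heart change minus the liver change 0.15 (interval −0.45 to 0.76). The heart change of Lyl1 was 0.93 below that of liver in log2 (interval of heart minus liver −1.79 to −0.07, adjusted p = 0.178). The intervals of Hhex exclude a gap of 2-fold between these tissues, whereas that of Lyl1 does not. All differences for Tal1 were small and did not pass (log2 −0.25 lung minus liver, −0.08 heart minus liver and 0.17 heart minus lung).

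Partners of the factors moved in both directions. Of 17 genes for binding partners and corepressors, 5 rose and 2 fell in liver, 2 rose in lung, and 1 rose and 2 fell in heart, where 19.4%, 8.46% and 19.3% of all genes tested changed. Their median log2 change was 0.08 in liver, 0.13 in lung and 0.11 in heart. Ldb1, the bridge between Lmo2 and its partners, rose in liver from 256 ± 24.96 to 367 ± 37.7 CPM (log2 0.52, adjusted p = 0.00839) and in lung from 269 ± 19.0 to 463 ± 48.2 CPM (log2 0.78, adjusted p = 0.00154). The single-stranded DNA-binding proteins Ssbp2 and Ssbp3 guard Ldb1 from degradation. Ssbp2 rose in liver from 8.10 ± 1.15 to 17.0 ± 3.13 CPM (adjusted p = 0.000446) and in lung from 9.37 ± 1.14 to 18.7 ± 0.837 CPM (adjusted p = 0.00194). Ssbp3 rose in liver from 51.3 ± 4.78 to 114 ± 23.7 CPM (adjusted p = 0.000214) and in heart from 62.6 ± 4.999 to 101 ± 16.3 CPM (adjusted p = 0.0242). Rcor1, a corepressor that works with Gfi1 proteins, rose in liver from 66.5 ± 5.11 to 90.8 ± 5.03 CPM (adjusted p = 0.0032). In heart the E protein gene Tcf3, partner of Tal1 and Lyl1, fell from 203 ± 6.97 to 119.7 ± 4.13 CPM (adjusted p = 0.00612). The corepressor gene Cbfa2t3, which also joins Tal1 complexes, fell there from 224 ± 21.6 to 91.3 ± 15.5 CPM (adjusted p = 0.00614).

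Among 28 other transcription factors of blood lineages, 26 were tested, and 4 rose and 1 fell in liver, 2 rose and 1 fell in lung, and 4 rose and 2 fell in heart. These shares are near those of all genes that changed (19.4%, 8.46% and 19.3%) and are no result about the list. Cebpb and Cebpa, related factors of myeloid cells and liver, moved apart. Cebpb rose in liver from 22.4 ± 10.4 to 134 ± 67.5 CPM (log2 2.58, adjusted p = 0.00087) and in lung from 32.7 ± 12.1 to 107 ± 29.0 CPM (log2 1.72, adjusted p = 0.0212). Cebpa fell in liver from 66.9 ± 13.8 to 25.1 ± 1.58 CPM (log2 −1.42, adjusted p = 0.00194) and in lung from 16.6 ± 1.86 to 8.54 ± 2.32 CPM (adjusted p = 0.0404). Hepatocyte genes, 10 in all, summed to 785 to 2683 CPM in liver controls and 623 to 979 CPM in the knockouts. Of these 10, 0 rose and 3 fell in liver. The part of hepatocyte RNA in the liver values of Cebpa and Hhex was not tested. Runx2, a relative of Runx1 known for bone formation, rose in liver from 0.276 ± 0.0867 to 1.68 ± 1.14 CPM (adjusted p = 0.00745), where Runx1 did not pass. Nfe2, a factor of platelet formation, rose in liver from 0.581 ± 0.0299 to 2.05 ± 0.665 CPM (adjusted p = 0.0115). In heart Ikzf1, a lymphoid factor, rose from 0.489 ± 0.445 to 3.39 ± 0.670 CPM (adjusted p = 0.0121). Tfec had 1 count in the heart controls together and 0.962 ± 0.0578 CPM in the knockouts (adjusted p = 0.00336). Ikzf1 and Tfec rose beside the higher leukocyte and macrophage sums in heart, and the part of those cells was not tested. Hoxb4, a factor of blood stem cells, fell in heart from 22.6 ± 0.193 to 11.03 ± 1.63 CPM (adjusted p = 0.00271), as did Gata3 of T cells, from 5.33 ± 2.69 to 1.45 ± 0.714 CPM (adjusted p = 0.0165).

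Genes used as marks of hemogenic endothelium and early blood progenitors did not move together. Of 24 such genes, 4 rose and 6 fell in liver, 1 rose and 5 fell in lung, and 5 rose and 4 fell in heart, where 19.4%, 8.46% and 19.3% of all genes changed. Their median log2 changes were −0.23, −0.36 and −0.04. Itga2b, the integrin CD41 of early progenitors and platelets, rose in liver from 27.8 ± 4.80 to 154 ± 35.6 CPM (log2 2.47, adjusted p = 4.65e-06). It also rose in lung from 9.87 ± 1.16 to 41.2 ± 4.51 CPM (adjusted p = 0.000105) and in heart from 7.24 ± 0.0555 to 27.2 ± 10.2 CPM (adjusted p = 0.00033). Platelet and megakaryocyte genes, 14 with Itga2b among them, summed to 345 to 454 CPM in liver controls and 1517 to 2104 in the knockouts, to 139 to 177 and 243 to 520 in lung, and to 94.0 to 109.8 and 414 to 522 in heart. Of these 14, 5 rose in liver, 5 in lung and 4 in heart, against 9.54%, 4.35% and 10.2% of all genes. Tubb1 fell in heart. Itgb3, an integrin chain that endothelium also makes, had 97.9 CPM in liver controls and 1145 CPM in liver knockouts. Pf4, a platelet chemokine gene, went from 3.74 to 50.8 CPM in liver, 2.72 to 7.499 in lung and 2.90 to 27.0 in heart. The platelet genes Gp1ba, Gp6 and Ppbp passed in no tissue, and Gp6 stayed between 0.162 and 1.003 CPM in every group. Tal1, Lyl1 and Gfi1b are also active in megakaryocytes, and the part of platelet RNA in their values and in the rise of Itga2b was not tested.

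Other marks of that list went down or differed by tissue. In liver Ly6a, the stem cell antigen Sca-1, fell from 149 ± 10.3 to 35.6 ± 7.41 CPM (log2 −2.07, adjusted p = 5.5e-06), and the adhesion receptor gene Adgrg1 fell from 287 ± 24.02 to 62.1 ± 20.5 CPM (adjusted p = 0.000112). Ace, angiotensin-converting enzyme, rose there from 23.6 ± 5.33 to 229 ± 142 CPM (log2 3.28, adjusted p = 5.51e-05). Notch1, whose signal is needed to form blood stem cells, fell in lung from 616 ± 119.9 to 281 ± 92.5 CPM (adjusted p = 0.00397) and in heart from 805.0 ± 24.6 to 283 ± 10.7 CPM (adjusted p = 0.00125). Lung also had falls of Cd93, an endothelial and progenitor surface protein (2353 ± 141 to 816 ± 213 CPM, adjusted p = 0.00595), and Sox7 (233 ± 48.0 to 135 ± 11.9 CPM, adjusted p = 0.0121). In heart Cd44, an adhesion receptor, rose from 17.2 ± 2.705 to 109 ± 39.8 CPM (adjusted p = 0.000753), and Spn, the leukocyte sialophorin CD43, from 0.334 ± 0.390 to 6.49 ± 0.0832 CPM (adjusted p = 0.0032), beside the higher leukocyte sums there.

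Across the 16 libraries the factors followed different genes. Likeness was measured as Pearson's r of log2(CPM + 1) over 10781 genes that reached a mean of 10 CPM in a group. The libraries share tissue and group differences, so the r values are a description. Hhex was most like Ccn2 (r = 0.970), which encodes a matricellular growth factor, Clca3a1 (0.958) and Kcnj1 (0.938). The other 8 factors were left out of this search. Lyl1 was most like Ublcp1 (0.920), and Clca3a1 followed (0.899), while Lyl1 and Hhex had r = 0.915 with each other. Gata2 was most like Tmod2 (0.985), Ankrd33b (0.984) and Vegfd (0.984), a lymphatic growth factor gene. Spi1 was most like Tyrobp (0.987), Rac2 (0.971) and Ctss (0.940), which are all leukocyte or macrophage genes of the lists above. Runx1 was most like Anxa8 (0.936) and Pam (0.933), Tal1 like Slc52a2 (0.941) and Ugcg (0.926), and Lmo2 like Rgl3 (0.910). The closest gene to Gfi1 was Nmb, at only 0.800.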

How the data were processed

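Gene-level read counts of 16 libraries were used as the authors deposited them, with no per-sample column unused. Alignment was with STAR 2.7.6a to GRCm38 after FastQC 0.11.5, per the submitters' processing notes. The sources used here name no counting program, strand setting or annotation. Per the labels' protocols a TruSeq kit was used, unstranded or stranded, with no word on which library had which. Counting by another program or strand could shift genes with antisense neighbours.

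Genes kept by filterByExpr (minimum count 10, total 15) entered 1 edgeR 4.0.16 quasi-likelihood fit of the 6 group means (R 4.3.3, TMM factors 0.916 to 1.07). Each comparison was adjusted by Benjamini-Hochberg over its 19646 genes at 0.05. Other tools were limma 3.58.1 (voom) and DESeq2 1.42.0. The code of the fit was also run on simulated counts. These had fewer changed genes than the data and the spread that the fit itself assumes, so they say nothing of the results. CPM use the TMM-scaled library size, and lengths for RPKM are merged GENCODE M21 exons. Other settings tried were the scaling, the filter, the tool, the samples fitted, a replicate block and leaving out each library.

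The members and gene lists were chosen with earlier results of these data known. All 9 factors, Ptprc, Erg and Fli1 are named whatever their values. From each other list the 4 called genes of lowest adjusted p per tissue could be named, or else its most abundant genes, and for likeness the 3 genes with the highest r. Tubb1, Gp1ba, Gp6 and Ppbp were named after their values were seen. A gene that the rule would name is not reported here. Sequences are from RefSeq (GRCm38.p6), and Lmo2 and Spi1 had no entry in the table used.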

Additional observations from a re-analysis of the deposited data

Results flagged for a closer look

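The knockout effect of Runx1 and Spi1 differed between tissues by a test of the difference itself. For Runx1 the log2 change in heart exceeded that in liver by 3.92 (adjusted p = 0.00318 by edgeR) and that in lung by 4.44 (adjusted p = 0.0019). For Spi1 the excess was 4.43 over liver (adjusted p = 0.0041) and 3.603 over lung (adjusted p = 0.0174). Both knockout-labelled heart libraries lay above both heart controls for each gene, where the heart groups did not overlap for 59% of all genes tested. The pan-leukocyte and macrophage sums were higher in the same 2 libraries. The part of those cells was not tested. No group holds 4 or more libraries, so none was searched for outlying values.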

How the results depend on the processing

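Counts of called factors stayed within 1.5 times of the reported ones under every alternative for liver, for lung, for lung against liver, for heart against liver and for the 3 control comparisons. The heart count of 5 ran from 3 to 6 when 1 library was left out, the 3 being without knockout-labelled heart library 2. The heart-against-lung count of 2 was 1 with limma-voom and ran from 1 to 2 when 1 library was left out, being 1 without heart control 1 or knockout-labelled heart library 2. Of 403 values of called factors over the alternatives, 376 kept their call, 27 lost it and 0 reversed. Of 665 values of factors that had not passed, 640 stayed so, 7 passed and 18 turned sign. The heart leave-one-out fits keep 1 library in a group and assume that it varies like the others.

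Values that turned sign (log2), with the range over left-out libraries, were these. Heart minus liver had −0.38 to 0.26 for Gata2, −1.37 to 5.44 for Gfi1 and −0.12 to 0.50 for Hhex. Lyl1 in heart controls had −0.40 to 0.19 against liver and −0.10 to 0.48 against lung. Ptprc in liver had −0.65 to 0.0586. Lung minus liver had −0.0801 to 0.19 for Lmo2 and −0.51 to 0.23 for Ptprc, the latter 0.0241 with limma-voom. In lung Gata2 had −0.36 to 0.0232 and Spi1 −0.16 to 0.40. The causes were not tested. Gfi1 gave no value where a filter or DESeq2 dropped it.

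Deviations of same-numbered control and knockout libraries of a tissue correlated at −0.0797 to 0.240, so the numbers were not taken as pairs. Between tissues, libraries of 1 genotype with the same description number correlated at 0.0472 to 0.148, in 7 of 14 pairs over 0.1, and every number 2 was male and every other number female. Whether tissues shared animals was not tested. With a replicate block by title number or by description number, 3, 2 and 5 factors were called in liver, lung and heart. The block ended the lung call of Tal1 (adjusted p = 0.0639 by title number) and, by title number, that of Lmo2 between lung and liver controls (0.0502). With the description number, Gata2 heart minus liver was 0.10 and the Ptprc call in heart ended (adjusted p = 0.0538). Depth limits Gfi1 and Gfi1b, and 2 libraries a group limit heart.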
